A study of Homo sapiens with 3 samples.

Results

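HMGA1, HMGA2, LIN28A, LIN28B, IGF2BP1, IGF2BP2 and IGF2BP3 are oncofetal genes, active in the embryo and often high in tumors, of which HMGA1 and IGF2BP2 are also expressed in many adult tissues. They were followed in Rh-30 cells, an established alveolar rhabdomyosarcoma (ARMS) line with a PAX3-FOXO1 fusion. Every probe set that the platform annotation pairs with 1 of these symbols alone was taken, which gave 22 of the 54675 probe sets and 7 of the 19775 genes measured. The study asked what knockdown of PAX3-FOXO1 and of the surface protein B7-H3, encoded by CD276, does to gene expression in ARMS. The conditions were measured with 1 Affymetrix U133 Plus 2.0 expression array each: Rh-30 transfected with an siRNA to the fusion point of PAX3-FOXO1 (siPF), Rh-30 transfected with an siRNA to B7-H3 (siB7-H3) and Rh-30 transfected with a control siRNA (siCont). Each siRNA was given at 5 nM, total RNA was taken 24 h later, and each target was hit by a single siRNA in this 1 cell line. As each condition had 1 array, there is no replicate error and no test between conditions, and every difference below lies between 2 arrays. Both knockdown arrays were compared with the same siCont array, so a deviation of that array enters both comparisons.

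HMGA1 and HMGA2 are small chromatin proteins whose AT hooks bind the minor groove of AT-rich DNA. LIN28A and LIN28B are RNA-binding proteins that block maturation of the let-7 microRNAs, and IGF2BP1, IGF2BP2 and IGF2BP3 are RNA-binding proteins that control the stability, transport and translation of their target mRNAs. The families are joined through let-7: its members repress HMGA2, LIN28B and IGF2BP mRNAs, and LIN28 proteins in turn lower let-7, so that the genes are high together in embryonic cells and fall as let-7 accumulates in differentiating tissue.

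The mature let-7 microRNAs were not measured on these arrays. Their sequences are shown because the seed, bases 2 to 8, is what pairs with a target mRNA. RefSeq (GRCh38.p14) lists 12 let-7 and miR-98 loci with 9 distinct mature sequences, all with the seed GAGGUAG, which 11 of the 2370 mature human miRNAs in the table hold. In 4 of them, with the seed in capitals, the differences lie at the first base and in the 3′ part.
hsa-let-7a-5p: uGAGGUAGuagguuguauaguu
hsa-let-7d-5p: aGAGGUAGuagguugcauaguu
hsa-let-7i-5p: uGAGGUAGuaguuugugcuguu
hsa-miR-98-5p: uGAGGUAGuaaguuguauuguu

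The arrays were scaled alike, with a mean intensity of 500.1 on each after the lowest and highest 2% of probe sets were left out. Intensities are in linear units, and differences are on the log2 scale, where 1 is 2-fold. A probe set was counted as at the expressed level when its mean log2 intensity over the 3 arrays was at or over the 60th percentile of all probe sets, an intensity of 132. CD276 had an intensity of 1381 with siPF, 362 with siB7-H3 and 1486 with siCont, and FOXO1, the 3′ partner of the fusion, had 249 with siPF, 650 with siB7-H3 and 678 with siCont. Of 18 rhabdomyosarcoma and myoblast markers, 13 were at the expressed level, MYOD1 and DES among them, while MYF6, CHRNG, PAX7, TFAP2B and CDH3 were not. Of 18 epithelial, leukocyte, endothelial and hepatocyte markers, CLDN4 and PECAM1 were at that level, and the intensities of all 18 ranged from 1.03 to 910 with a median of 27.5. The muscle differentiation factor MYOG stood at 3386 with siPF, 1269 with siB7-H3 and 605 with siCont, and its part in the differences below was not tested.

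Of the 22 probe sets, 10 were at the expressed level, and they belonged to HMGA1, HMGA2, IGF2BP1, IGF2BP2 and IGF2BP3. The other 12 had intensities between 0.355 and 99.6 and included the single probe sets of LIN28A and LIN28B. Where a gene had several, the brightest on average over the arrays on the log2 scale stood for it.

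**Figure D1:**
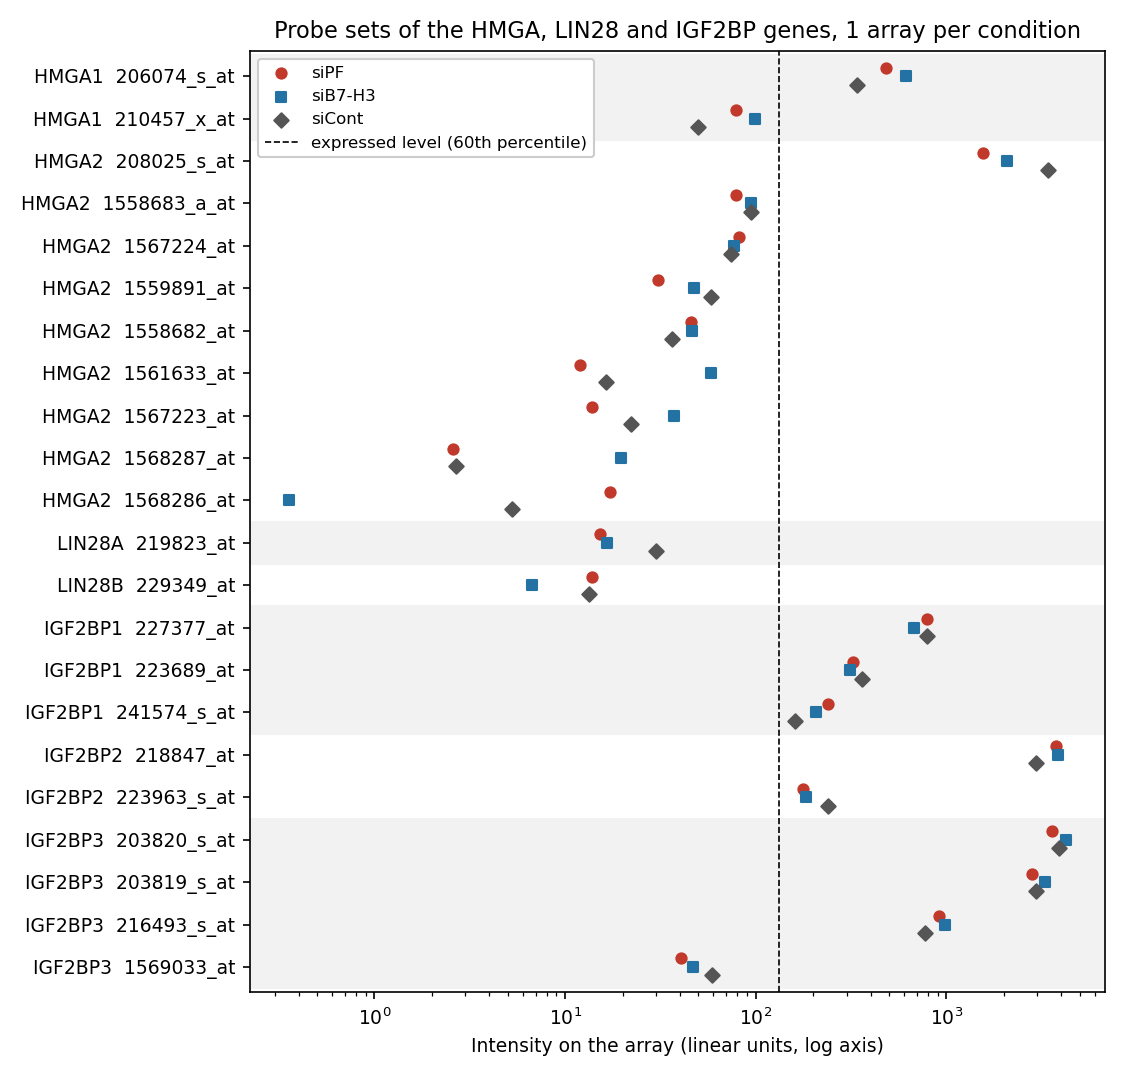
Intensity of each of the 22 probe sets on the siPF, siB7-H3 and siCont arrays (linear units on a log axis, 1 point per array), with the expressed level of 132 as a dashed line. HMGA2 208025_s_at is lowest with siPF and highest with siCont, HMGA1 206074_s_at has the opposite order between knockdown and control, and the LIN28 probe sets lie far left of the line.

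HMGA2 gave the largest difference of the 5 genes at the expressed level with siPF, and it was lower on both knockdown arrays. Its probe set 208025_s_at, annotated with a RefSeq transcript, had an intensity of 1551 with siPF, 2069.7 with siB7-H3 and 3390 with siCont. The siPF array was the lower of the knockdown arrays. The log2 difference was −1.13 for siPF against siCont, which makes siCont 2.19-fold higher, and −0.71 for siB7-H3 against siCont, which makes siCont 1.64-fold higher. Between the knockdowns, siPF against siB7-H3, it was −0.42.

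How far apart 2 arrays lie depends on the level, so each gene was set beside the genes of its decile of mean level. In the decile that holds HMGA2, the SD of the log2 differences over genes was 0.31 for siPF against siCont and 0.28 for siB7-H3 against siCont, and 1.11% of the genes passed 2-fold with siPF and 0.809% with siB7-H3. These SDs describe the spread between genes and are no replicate error.

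The other 8 HMGA2 probe sets were dim, with intensities from 0.355 to 94.4, and did not follow 208025_s_at as a group. With siPF, 6 of the 9 HMGA2 probe sets were lower than with siCont and 3 were higher. With siB7-H3, 3 were lower and 6 were higher. The probe set 1559891_at went the same way as 208025_s_at, with an intensity of 30.5 with siPF, 47.7 with siB7-H3 and 58.2 with siCont. The probe set 1558683_a_at had 78.8 with siPF, 94.4 with siB7-H3 and 94.0 with siCont, and 1567224_at had 81.6 with siPF, 77.1 with siB7-H3 and 74.2 with siCont. At the dim end the differences grew in size without a common direction: 1568286_at had 17.1 with siPF, 0.355 with siB7-H3 and 5.26 with siCont, while 1568287_at had 2.58 with siPF, 19.6 with siB7-H3 and 2.68 with siCont. Which parts of the HMGA2 gene these probe sets read was not determined, and the lower HMGA2 signal rests on 1 probe set. The ending of its ID, too, marks probes able to bind more than 1 transcript. With the median over all 9 probe sets in its place, the HMGA2 log2 difference was −0.26 for siPF and 0.39 for siB7-H3. Without probe sets of such endings it was 0.14 for siPF and 0.05 for siB7-H3. The 2-fold call with siPF ended in both. Both alternatives read dim probe sets in place of 208025_s_at, so they cannot decide whether its difference holds.

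HMGA1 differed in the opposite direction. Its probe set 206074_s_at, also annotated with a RefSeq transcript, had an intensity of 485 with siPF, 615 with siB7-H3 and 339.7 with siCont. Here both knockdown arrays were above the control array, and the siB7-H3 array was the higher of them. The log2 difference was 0.51 for siPF against siCont (1.43-fold), 0.86 for siB7-H3 against siCont (1.81-fold) and −0.34 for siPF against siB7-H3. In its decile of genes the SDs were 0.38, 0.33 and 0.33 for these 3 comparisons.

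The second HMGA1 probe set, 210457_x_at, was dim and kept the same order, with an intensity of 79.0 with siPF, 99.6 with siB7-H3 and 49.9 with siCont. Its log2 differences were 0.66 for siPF, 0.999 for siB7-H3, just short of the threshold, and −0.33 between the knockdowns. Both HMGA1 probe sets have IDs that mark probes able to bind more than 1 transcript, and HMGA1 has processed pseudogenes, and whether such copies add to the signal was not tested. By their representative probe sets HMGA1 and HMGA2 stood on opposite sides of the control array. HMGA2 with siB7-H3 was above it with both alternatives given above, but these read dim probe sets.

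IGF2BP2 had 2 probe sets at the expressed level that disagreed. IGF2BP2 stabilizes and localizes mRNAs, and HMGA2 is known to activate its gene. Its probe set 218847_at, annotated with a RefSeq transcript, had an intensity of 3752 with siPF, 3855 with siB7-H3 and 2951 with siCont. The log2 differences were 0.35 for siPF and 0.39 for siB7-H3, and the SDs of its decile of genes were 0.27 and 0.24. The probe set 223963_s_at had 176 with siPF, 183 with siB7-H3 and 239 with siCont, log2 differences of −0.44 for siPF and −0.38 for siB7-H3. The knockdown arrays were therefore above the control array by the first probe set and below it by the second. Between the knockdowns neither differed much, at −0.04 and −0.06.

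The spread between probe sets of a gene was measured over all 5175 genes with at least 2 at the expressed level, as the gap between the log2 differences of the 2 brightest. The median gap was 0.20 for siPF against siCont, 0.19 for siB7-H3 against siCont and 0.17 for siPF against siB7-H3, and the 90th percentiles were 0.58, 0.55 and 0.51. For IGF2BP2 the values of both probe sets in the first 2 comparisons lie farther apart than these 90th percentiles. The direction for IGF2BP2 is therefore not settled by these arrays.

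RefSeq gives IGF2BP2 and HMGA1 more than 1 start site, and the 300 bases around each (250 before and 50 after the start) differ in composition. They are shown for IGF2BP2 because its probe sets disagreed, and for HMGA1 because it was higher with both siRNAs. GC boxes (GGGCGG on either strand, where overlapping matches merge) are in capitals, and 45.0% of the 35116 promoter windows of this length in the table hold at least 1. The windows are in GRCh38.p14, each 5′ to 3′ on the strand of the gene: IGF2BP2 at chr3:185824993-185825292 on the minus strand and at chr3:185821093-185821392 on the minus strand, and HMGA1 at chr6:34236623-34236922 on the plus strand.
IGF2BP2 window 1: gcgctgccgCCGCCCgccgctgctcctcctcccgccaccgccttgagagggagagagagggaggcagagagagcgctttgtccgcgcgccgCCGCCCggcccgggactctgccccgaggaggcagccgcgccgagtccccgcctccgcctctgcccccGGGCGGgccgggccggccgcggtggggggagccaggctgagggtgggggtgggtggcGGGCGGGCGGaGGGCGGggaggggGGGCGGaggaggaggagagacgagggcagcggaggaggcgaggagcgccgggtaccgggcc
IGF2BP2 window 2: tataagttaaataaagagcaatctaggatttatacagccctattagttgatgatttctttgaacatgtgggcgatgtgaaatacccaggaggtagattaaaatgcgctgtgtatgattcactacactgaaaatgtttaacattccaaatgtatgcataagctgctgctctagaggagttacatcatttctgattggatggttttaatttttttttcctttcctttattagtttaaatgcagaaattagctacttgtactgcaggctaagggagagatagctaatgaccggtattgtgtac
HMGA1 window: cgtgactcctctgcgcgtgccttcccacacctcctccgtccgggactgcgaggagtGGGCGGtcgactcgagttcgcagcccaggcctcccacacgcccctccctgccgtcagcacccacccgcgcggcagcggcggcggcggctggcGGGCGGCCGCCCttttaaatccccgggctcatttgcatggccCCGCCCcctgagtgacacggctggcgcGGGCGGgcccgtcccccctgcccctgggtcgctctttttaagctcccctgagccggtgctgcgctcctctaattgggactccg

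The first IGF2BP2 window has 80.7% G and C and 7 GC boxes. The second has 35.0% G and C, no GC box, 6 matches to the homeodomain core TAAT and 2 to TATAA. The HMGA1 window has 72.0% G and C and 5 GC boxes, and a further HMGA1 window at chr6:34238541-34238840 has 53.0% and none. Over all windows, counting both strands, TAAT occurs in 50.2% and TATAA in 20.4%, and the median G and C content is 58.7%. Which start site the transcripts behind each probe set use was not determined.

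IGF2BP1, a regulator of mRNA decay and localization in the embryo, had 3 probe sets at the expressed level. The representative 227377_at had an intensity of 794 with siPF, 679 with siB7-H3 and 786 with siCont. The second, 223689_at, had 325 with siPF, 313 with siB7-H3 and 359 with siCont. The third, 241574_s_at, had 239 with siPF, 206 with siB7-H3 and 160.1 with siCont. The first 2 lay within 0.21 of siCont on the log2 scale in both comparisons, and the third was higher by 0.58 with siPF and 0.36 with siB7-H3.

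IGF2BP3, which is found in many tumors and binds mRNAs that include IGF2, also had 3 probe sets at the expressed level. The representative 203820_s_at, annotated with a RefSeq transcript, had an intensity of 3563 with siPF, 4230.2 with siB7-H3 and 3908 with siCont. The probe set 203819_s_at had 2808 with siPF, 3302 with siB7-H3 and 2959.5 with siCont. The probe set 216493_s_at had 919 with siPF, 987 with siB7-H3 and 768 with siCont. All 3 were lower with siPF than with siB7-H3, by log2 differences from −0.25 to −0.10, and against siCont they lay between −0.13 and 0.26 for siPF and between 0.11 and 0.36 for siB7-H3. The dim probe set 1569033_at had 40.3 with siPF, 46.9 with siB7-H3 and 58.6 with siCont.

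**Figure D2:**
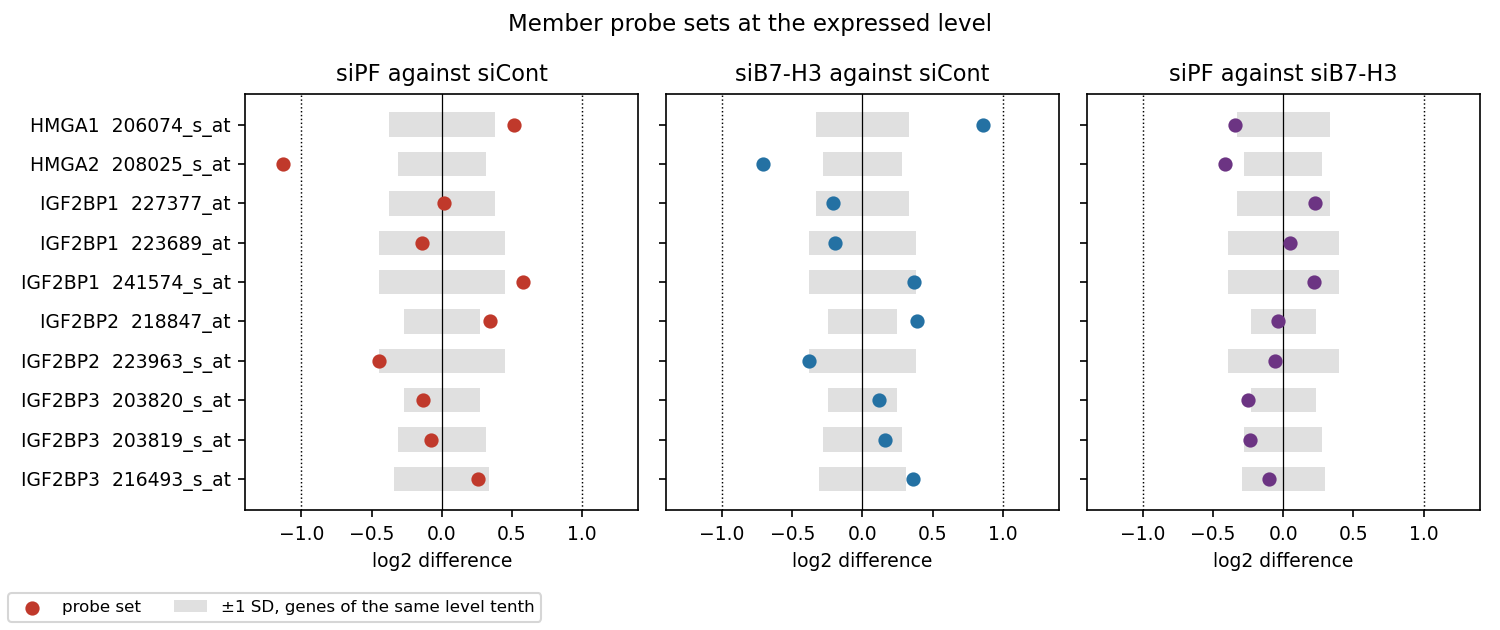
Log2 differences of the 10 probe sets at the expressed level in the 3 comparisons (1 point per probe set; grey bars, ±1 SD over genes of the same decile of mean level; dotted lines, 2-fold). HMGA2 lies outside its bar on the left in all 3 comparisons. HMGA1 lies outside on the right against siCont and just outside on the left between the knockdowns. Some probe sets of IGF2BP1, IGF2BP2 and IGF2BP3 also lie outside their bars in 1 or more comparisons. The probe sets of IGF2BP2 lie on opposite sides of 0 against siCont.

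LIN28A and LIN28B were each read by 1 dim probe set. LIN28A 219823_at had an intensity of 15.3 with siPF, 16.5 with siB7-H3 and 30.05 with siCont, log2 differences of −0.98 for siPF and −0.86 for siB7-H3. LIN28B 229349_at had 13.9 with siPF, 6.67 with siB7-H3 and 13.4 with siCont, log2 differences of 0.05 for siPF and −1.001 for siB7-H3. The LIN28B value with siB7-H3 just reached 2-fold. In the decile of genes with the level of LIN28B, however, 55.9% of all genes passed 2-fold with siPF and 58.1% with siB7-H3, and in that of LIN28A 41.8% and 40.6% did. A difference of this size at this level cannot be told apart from the scatter of dim probe sets, and low expression of LIN28 mRNA cannot be told apart from probes that bind poorly.

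**Figure D3:**
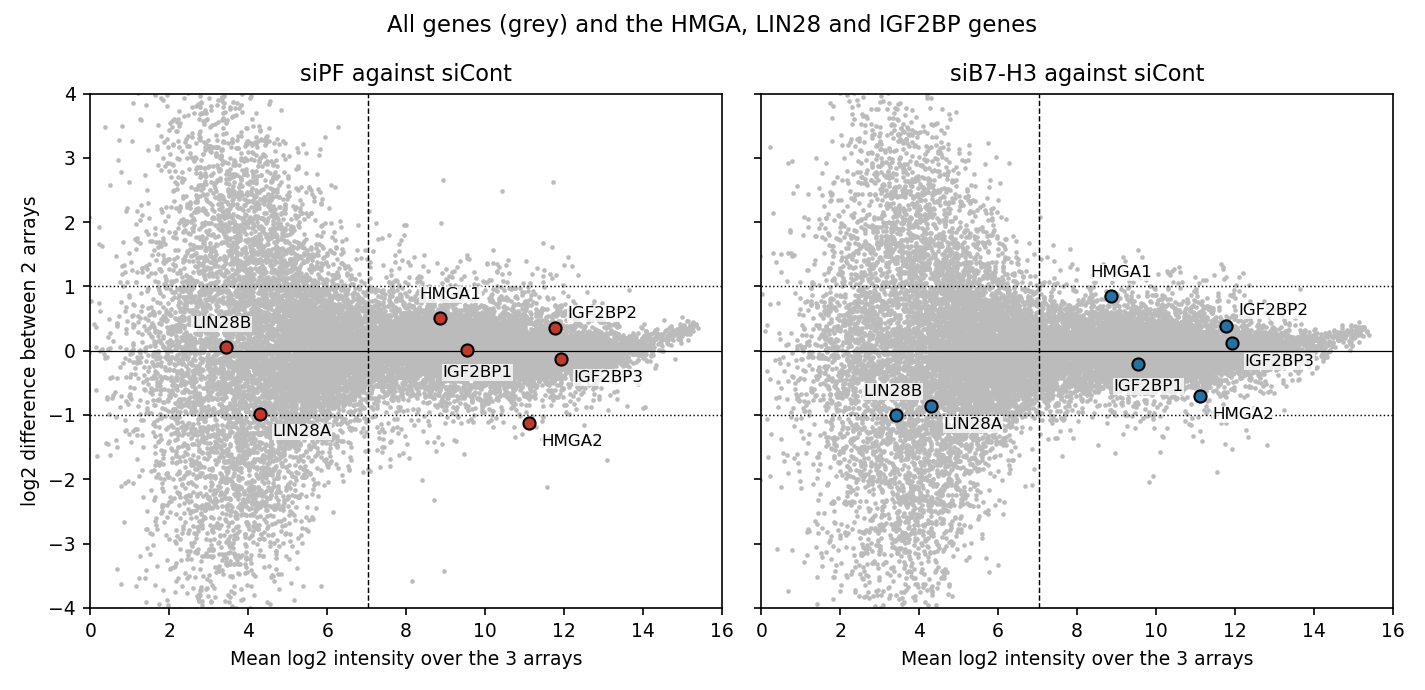
Log2 difference against mean log2 intensity for all 19775 genes (grey) and the 7 oncofetal genes (color), siPF against siCont on the left and siB7-H3 against siCont on the right; 104 and 105 genes lie beyond the axis limit of 4. The scatter is wide at the level of LIN28A and LIN28B, and HMGA2 lies below most genes of its level in both panels.

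Counted over genes, 1 of 7 passed 2-fold with siPF (HMGA2, lower), beside 19.1% of all genes in either direction. With siB7-H3, 1 of 7 passed it (LIN28B, lower), beside 18.2%, and between siPF and siB7-H3, 1 of 7 (LIN28B, higher with siPF), beside 18.9%. These shares are near the background or below it. Counted over probe sets, 2 of 22 passed with siPF, 4 of 22 with siB7-H3 and 5 of 22 between the knockdowns, beside 21.0%, 20.4% and 20.7% of all probe sets named with 1 gene.

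At the expressed level the background was far lower. With siPF, 1 of the 5 genes was lower by 2-fold (HMGA2), beside 0.811% of the 10228 genes at that level, and 0 were higher, beside 1.10%. With siB7-H3, 0 were lower, beside 0.606%, and 0 higher, beside 0.636%. Between siPF and siB7-H3, 0 were lower, beside 0.665%, and 0 higher, beside 0.655%. At 1.5-fold, HMGA2 was the 1 gene lower with siPF, beside 4.02%, with 0 higher, beside 5.08%, and with siB7-H3 HMGA2 was lower, beside 3.20%, and HMGA1 higher, beside 3.87%. The median log2 difference of the 5 genes was 0.02 for siPF, 0.11 for siB7-H3 and −0.25 for siPF against siB7-H3, beside 0.02, 0.02 and 0.00 (0.0037) over all genes at that level. Between the knockdowns, HMGA1, HMGA2, IGF2BP2 and IGF2BP3 were lower with siPF and IGF2BP1 was higher. IGF2BP2 differed by −0.04 only. HMGA2 was at 0.08 without probe sets that can bind several transcripts, a value from a dim probe set.

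The genes most like HMGA2 and HMGA1 were sought among the other 10227 genes at the expressed level by the distance in the 2 log2 differences to siCont. REEP3, which shapes the endoplasmic reticulum during mitosis, was nearest to HMGA2 at a distance of 0.01 (0.0136), with 990.3 with siPF, 1314 with siB7-H3 and 2145 with siCont. The carbonic anhydrase CA3, a gene of skeletal muscle, followed at 0.05 and the zinc finger gene ZNF675 at 0.06, and these 3 were the only genes within 0.1. Nearest to HMGA1 were ZC3H7B at 0.02, the cyclin gene CCNJ at 0.05 and PGRMC2 at 0.05, of 14 genes within 0.1. This likeness rests on 3 arrays.

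Genes linked to the 3 families were read from 7 lists written from general knowledge, with the 7 oncofetal genes left out of each. Among genes of let-7 biogenesis and LIN28 cofactors, 20 of 23 measured were at the expressed level, and 1 passed 2-fold, AGO4, an Argonaute protein, with 1037 with siPF, 1088 with siB7-H3 and 369 with siCont, while its other 3 probe sets were below that level. The list medians were −0.02 for siPF and 0.02 for siB7-H3. DICER1, which cuts the let-7 precursor, had 3432 with siPF, 4974 with siB7-H3 and 4928 with siCont, and its other 3 probe sets at the expressed level ranged from −0.44 to 0.22 for siPF. TRIM71, a let-7 target of the embryo that also binds RNA, was dim, with 27.3 with siPF, 24.1 with siB7-H3 and 35.6 with siCont.

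Of 34 measured let-7 targets, 29 were at the expressed level, and 0 passed 2-fold with either siRNA against siCont. With siPF 16 were above siCont and 13 below, with a median of 0.08, and with siB7-H3 15 were above and 14 below, with a median of 0.01. The transcription factor gene MYC had 2531 with siPF, 3227 with siB7-H3 and 2839 with siCont. TGFBR1, a TGF-beta receptor, passed 2-fold between the knockdowns, with 10861 with siPF and 5163 with siB7-H3, beside 7985 with siCont. Its other 2 probe sets at that level gave log2 differences of 1.21 and −0.36 between the knockdowns. The widest differences from siCont, picked after the values were seen, were those of the insulin receptor gene INSR with siPF, at 264 with siPF, 223 with siB7-H3 and 135 with siCont, and of the cell cycle kinase gene CDK6 with siB7-H3, at 10644 with siPF, 6667 with siB7-H3 and 12596 with siCont. The other INSR probe set at the expressed level gave 0.21 for siPF, against 0.97 for the one printed, and the other 6 of CDK6 ranged from −1.13 to −0.57 for siB7-H3.

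Transcripts reported as bound by IGF2BP proteins gave 13 genes at the expressed level of 17 measured, with medians of 0.18 for siPF and 0.06 for siB7-H3 and 0 past 2-fold. The siPF median was not stable: it was 0.01 with quantile normalization, −0.04 without probe sets that can bind several transcripts and 0.30 with the median over probe sets. Highest with both siRNAs was the Hedgehog effector GLI1, with 702 with siPF, 604 with siB7-H3 and 419 with siCont. The list of IGF2BP granule partners also counted the RNA methylation factors METTL3, METTL14, YTHDF1 and YTHDF3. In it 20 of 21 measured were at the expressed level, with medians of 0.08 for both siRNAs. By the probe set that stood for each gene, ELAVL2, an RNA-binding protein of neurons, was the 1 past 2-fold. ELAVL2 had 2285.5 with siPF, 929 with siB7-H3 and 774 with siCont, although its other probe set at that level gave −0.08 for siPF against siCont. The other FXR2 probe set at that level gave −1.35 for siPF and −1.08 for siB7-H3, against 0.11 and −0.09 for the one standing for FXR2. For HNRNPU the lowest other probe set gave −1.32 for siPF, against 0.01.

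Genes reported downstream of HMGA proteins, 13 at the expressed level of 20 measured, had medians of −0.09 for siPF and 0.00 (0.0006) for siB7-H3, with 0 past 2-fold. The AP-1 subunit JUNB had 531 with siPF, 356 with siB7-H3 and 297 with siCont, and the cell cycle factor E2F1 had 1056 with siPF, 648 with siB7-H3 and 1019.7 with siCont, where its other probe set at the expressed level gave −0.24 for siB7-H3. The list of other high mobility group chromatin proteins, in which the linker histones H1-2, H1-4 and H1-10 were also counted, had 19 of 20 measured at the expressed level. It also had 0 past 2-fold. The linker histones were all above siCont with siPF, while with siB7-H3 H1-2 was above it and H1-4 and H1-10 below. In this list 14 were above siCont and 5 below with siPF, and the same numbers held with siB7-H3, against the same siCont array. The medians were 0.14 and 0.09, beside 0.02 and 0.02 over all genes at that level. HMGB1, a DNA-bending protein, had 28951 with siPF, 29503 with siB7-H3 and 22366 with siCont, and its other 4 probe sets at the expressed level ranged from −0.11 to 0.43 for siPF.

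Other oncofetal and embryonic stem cell genes, 9 at the expressed level of 23 measured, had medians of 0.20 for siPF and 0.14 for siB7-H3 and 0 past 2-fold. With each siRNA 6 were above the shared siCont array and 3 below. PEG10, an imprinted gene of the placenta, had 8744 with siPF, 13424 with siB7-H3 and 15888 with siCont. AFP, the fetal serum protein of the liver, had 502 with siPF, 658 with siB7-H3 and 881 with siCont. By these probe sets both were lowest with siPF and highest with siCont, but the other PEG10 probe set at the expressed level gave −0.73 for siPF and 0.11 for siB7-H3. KLF4, a stem cell transcription factor, had 1520.4 with siPF, 2819 with siB7-H3 and 2551 with siCont. Among the genes above siCont, TNC, an extracellular matrix protein of the embryo, had 13828 with siPF, 14435 with siB7-H3 and 8942 with siCont. FN1 had 619 with siPF, 457 with siB7-H3 and 384 with siCont, and its other 3 probe sets at the expressed level ranged from −0.35 to 0.34 for siB7-H3. PLAC1 had 191 with siPF, 182 with siB7-H3 and 131 with siCont.

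**Figure D4:**
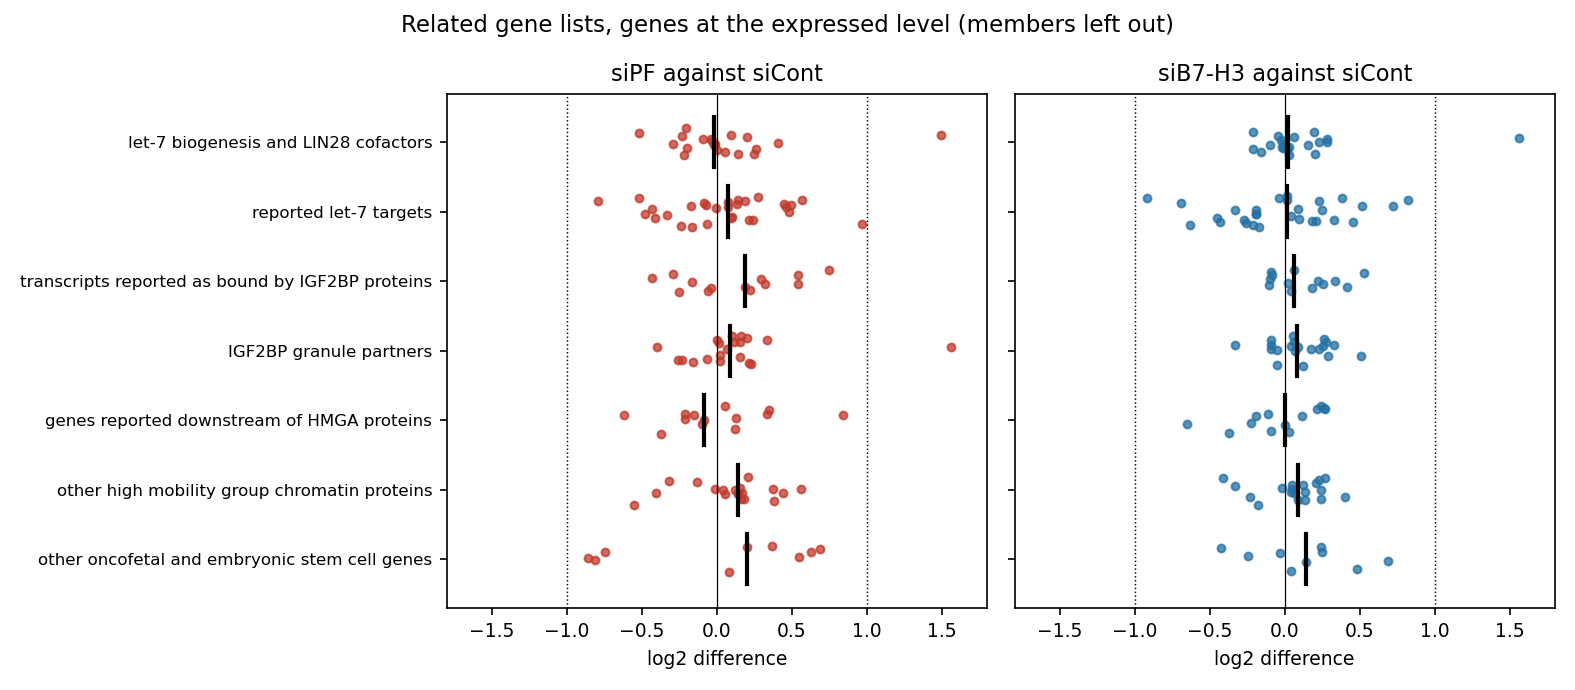
Log2 differences of the genes at the expressed level in the 7 related lists (1 point per gene; black bars, list medians; dotted lines, 2-fold), siPF against siCont on the left and siB7-H3 against siCont on the right. All medians lie between −0.09 and 0.20, and AGO4 with both siRNAs and ELAVL2 with siPF are the points past 2-fold.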

How the data were processed

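The authors deposited 1 linear intensity for each probe set on each array, computed in Affymetrix Expression Console 1.4.1 per the labels. The summarization method is not given in the sources used here. Gene names came from the platform annotation, and 62 controls, 1801 probe sets with several genes and 11721 with none were left out, which leaves 41091 for 19775 genes. The log2 intensities, without floor or pseudocount, were subtracted between arrays, and 2-fold was the threshold. Each of the 3 comparisons lies between 2 arrays, so no test was run.

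Named were the 7 genes, list genes past 2-fold at the expressed level or, in lists with none, some of the 3 highest and 3 lowest per comparison, MYC, DICER1 and TRIM71, the nearest genes, markers and siRNA targets. Any other gene is marked as picked after its values were seen. The genes and lists were chosen with earlier results of these data known. Alternatives changed the probe set per gene, scaling, floor, pseudocount (16), threshold (1.5-fold) and level rule. Computations ran in Python 3.11.15 (scipy 1.17.1, pandas 2.3.3, numpy 2.4.6; plots, matplotlib 3.10.9) and were tested on simulated data. The number of arrays limits the precision.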

Additional observations from a re-analysis of the deposited data

How the results depend on the processing

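The count of genes past 2-fold with siPF was 1, and it was 0 with each gene's median over its probe sets and 0 without probe sets that can bind several transcripts, where HMGA1 has no value. With LIN28A added it was 2 with median centring, 2 with quantile normalization and 2 at 1.5-fold, and it was 2 over all 22 probe sets. With siB7-H3 the count was 1, and it was 0 with quantile normalization, 0 with a floor at the 60th percentile, 0 with a pseudocount of 16, 4 at 1.5-fold and 4 over all probe sets. Between siPF and siB7-H3 it was 1, and it was 0 with quantile normalization, 0 with the floor, 0 with the pseudocount and 5 over all probe sets. The median over probe sets at the expressed level was an alternative chosen after seeing the data, and it has no value for LIN28A and LIN28B. With it the counts with siB7-H3 and between siPF and siB7-H3 were 0 and 0. The siPF count stayed at 1, with HMGA2 at −1.13. As HMGA2 has 1 probe set at that level, this repeats its main value and is no independent check. HMGA2 with siPF had the opposite sign, 0.14, without probe sets that can bind several transcripts, which is also the value of 1567224_at. The sign was also opposite with 0.32 for 1558682_at and 1.70 for 1568286_at. All of these probe sets are dim. LIN28B with siB7-H3 was 0.024 with the floor, in place of −1.001. Median centring, quantile normalization and the pseudocount moved 0 of the 21 differences of the genes by more than the SD of their decile of mean level. Of the 21 list medians, 1 moved by over 0.1 with the median over probe sets, 1 with quantile normalization and 3 without probe sets that can bind several transcripts. Where a count moved, the cause was not tested, other than by the genes and probe sets left in it. No paired analysis was possible because each condition had 1 array.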

Other observations

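A few transcripts named for let-7 loci or as antisense to these genes, picked after their values were seen, were also read. The probe set named for the let-7d locus MIRLET7D, 227793_at, whose position was not determined, had an intensity of 247 with siPF, 255 with siB7-H3 and 191 with siCont. The let-7b host gene MIRLET7BHG had 116 with siPF, 126 with siB7-H3 and 125 with siCont by its brighter probe set, 232480_at, just below the expressed level. The antisense gene LIN28B-AS1 was dim, with 85.5 with siPF, 17.2 with siB7-H3 and 56.0 with siCont, and the 4 probe sets of IGF2BP2-AS1 were all below the expressed level.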
